A study of Danio rerio with 8 samples.

Results

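The 4 samples described here are the pools of pex2 mutant zebrafish (pex2-/-, homozygous for the allele labelled typeC), out of 8 samples in all. They were chosen by their group label. The other 4 are pools of wild-type siblings (pex2+/+), which serve only as a yardstick for how far pools of one genotype lie apart. Each sample is equal amounts of total RNA from the whole bodies of 3 larvae reared normally and taken 5 weeks post fertilization, hybridised to a one-colour Agilent array, so a value is an average over 3 animals and all their tissues. All cells of the mutants carry the mutation, the fish were genotyped from the tail fin, and the labels used here give neither sex nor clutch. Mutant pools numbered 1 to 4 are separate sets of animals, and their numbers carry no order.

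Pex2 is a membrane protein of peroxisomes that belongs to the ubiquitin ligase complex which recycles the receptor for imported enzymes. When it fails, the enzymes of the peroxisome matrix stay in the cytosol, and very long-chain fatty acids, plasmalogens and bile acids are not handled normally. In people, loss of such genes causes Zellweger syndrome, a disease of brain, liver, muscle and kidney whose severity varies between patients. Whole juvenile zebrafish hold tissues of very different size, among them muscle, gut, pancreas, liver, blood and a gonad that passes through a stage with immature oocytes. In whole-body RNA, fewer cells of a type and less RNA per cell cannot be told apart.

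All values are log2 levels of a gene's brightest probe relative to the 75th percentile of its array, and folds compare 1 gene between pools, never different genes. A gene counts as variable here when its highest and lowest of 4 pools lie at least 2-fold apart. A pool is called dim for a gene where its probe was not well above background. The fold then uses the higher of the dim value and the array's lowest well-above-background value. It is a nominal lower bound, written "at least". The mutant arrays were dimmer than the sibling arrays, with 75th percentiles of 454 to 499 intensity units against 611 to 839. The share of probes well above background was 74.9%, 72.7%, 75.6% and 67.3% in mutant pools 1 to 4 and 74.5% to 76.3% in the sibling pools, so pool 4 stood apart. The 100 brightest probes took 33.0% to 37.2% of the signal on the mutant arrays and 26.9% to 31.0% on the sibling arrays. Duplicate spots of a probe within an array had a median SD of 0.0567 to 0.0646, but they do not measure technical spread between arrays. The 4 brightest spike-in control probes, scaled alike, had SDs of 0.347 to 0.429 over the mutant arrays and 0.588 to 0.608 over the sibling arrays. Relative to the mean of these 4 on each array, the SDs were 0.0237 to 0.0624 and 0.0108 to 0.0242. The part of technical spread in the gene SDs was not tested. All arrays were on 1 slide and in 1 scan. Mutant pools 1 and 3 lay in its first row with sibling pools 2 and 4, and mutant pools 2 and 4 lay in the second row with sibling pools 1 and 3. The array has no probe assigned to pex2, so the mutation itself was not checked here.

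Gene levels lay further apart among the mutant pools than among the sibling pools. Over 17249 named genes with a value on every array, the median SD was 0.217 over the 4 mutant pools and 0.155 over the 4 sibling pools, and the SD was larger in the mutants for 12104 genes (70.2%). In the mutants 3138 genes (18.2%) were variable, against 1393 (8.08%) in the siblings, and 854 genes were variable in both. A 4-fold range was reached by 823 genes (4.77%) in the mutants and 194 (1.12%) in the siblings. The excess was present at every brightness: with genes ranked by brightness into 4 equal bins, dimmest first, the median SD was 0.333, 0.218, 0.178 and 0.182 in the mutants and 0.247, 0.165, 0.124 and 0.118 in the siblings. Among the 15404 genes well above background on all 4 mutant arrays, 2001 (13%) were variable in the mutants and 796 (5.17%) in the siblings. Pool 4 carried much of this. Without it 1702 genes were variable over the other 3 mutant pools, with a median SD of 0.170. Leaving out any 1 sibling pool left 716 to 1145 variable genes over the other 3 siblings, with a median SD of 0.133 to 0.155.

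**Figure D1:**
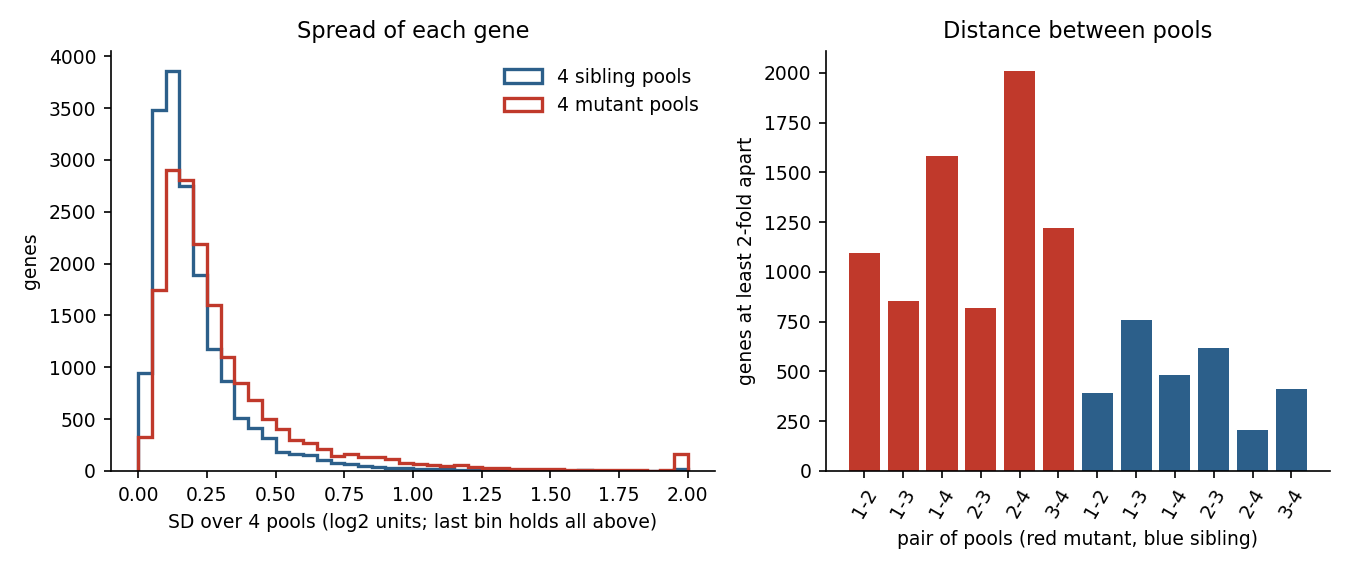
Left, number of genes (vertical axis) by SD of the log2 level over 4 pools (horizontal axis, last bin holds all larger values), for mutants in red and siblings in blue. Right, number of genes at least 2-fold apart for each pair of pools. The mutant curve lies to the right (median SD 0.217 against 0.155), and the mutant pairs differ in 818 to 2010 genes against 204 to 757 in sibling pairs.

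The pools parted along more than 1 line. A principal component analysis of the mutant pools placed 65.5% of the variance on a first component that held pool 4 (score 75) against pool 1 (-48.6), with pools 2 and 3 at -14.7 and -11.7. The second component (21.9%) set pool 2 (-44.0) against pool 1 (26.4), and the third (12.6%) set pool 3 (-33.8) against the others. Among the siblings the components took 44.2%, 38.2% and 17.6%. Pool 2 and pool 4, which lay in the same slide row, were the pair with the most differences of at least 2-fold (2010 genes), and pools 2 and 3 had the fewest (818). Sibling pairs differed by at least 2-fold in 204 to 757 genes.

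The most frequent pattern was low expression in pool 4. Splitting the 3138 variable genes at the midpoint between their highest and lowest pool, 791 (4.59% of all genes) had pools 1, 2 and 3 in the upper part and pool 4 alone below, 435 of them well above background in every mutant pool. Pool 2 alone was low in 285 genes (1.65%) and pool 1 alone in 188 (1.09%). Pools 3 and 4 together lay above pools 1 and 2 in 284 (1.65%). Pools 1 and 4 lay above pools 2 and 3 in 97 (0.562%). Pools 1 and 3 lay above pools 2 and 4 in 213 (1.23%), and the reverse held in 77 (0.446%). Pool 2 alone was high in 251 (1.46%) and pool 4 alone in 229 (1.33%). Counted another way, pool 4 lay at least 2-fold below every other mutant pool in 609 genes, of which 330 were dim there, and at least 2-fold above in 121. The same counts below and above were 111 and 247 for pool 1, 128 and 116 for pool 2, and 17 and 54 for pool 3. No sibling pool exceeded 97 genes above or 50 below.

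**Figure D2:**
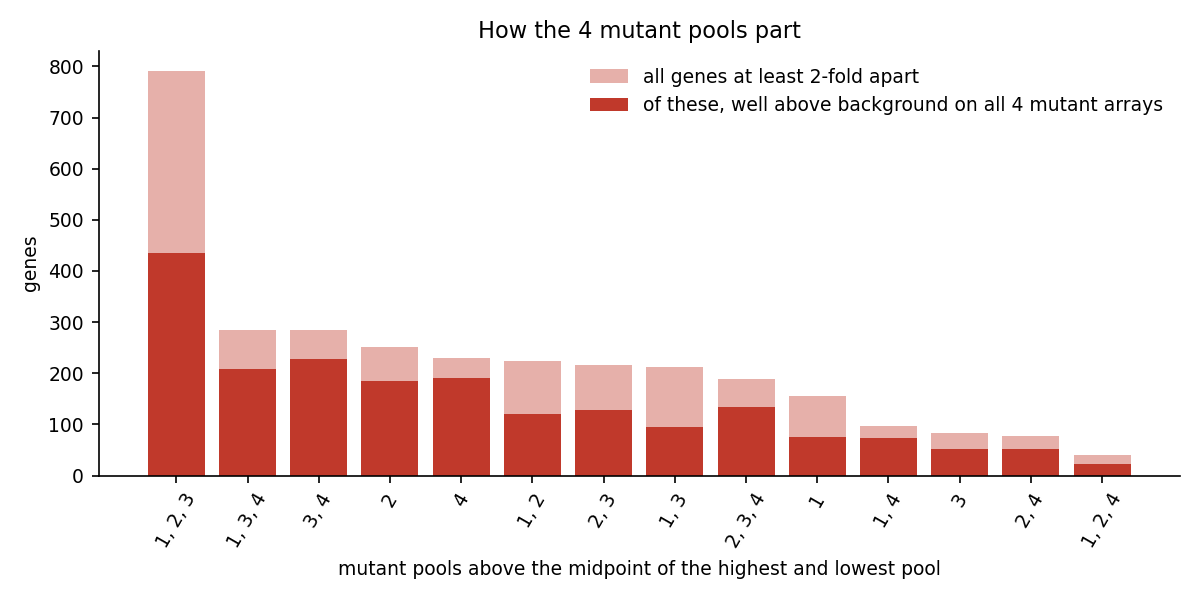
Number of variable genes (vertical axis) by which mutant pools lay above the midpoint of the gene's range (horizontal axis). Dark bars are the genes well above background on all 4 mutant arrays. The pattern with only pool 4 low holds 791 of 3138 genes, 435 of them well above background throughout.

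Of 45 gene lists for tissues and pathways, oocyte and egg coat genes, most of them dim in pool 4, had the widest range of the list's mean over the mutant pools, followed by germ cell, cholesterol synthesis, fast muscle and exocrine pancreas genes. The lists hold 1347 measured genes, of which 441 were variable in the mutants, where 18.2% of all genes were. For each list the level in a pool is given below as the mean over its genes of the deviation from the gene's own mean over the mutant pools. The order of pools was not the same for all tissues. Oocyte and muscle genes were lowest in pool 4, pancreas and most intestine genes in pool 1, cholesterol and cell division genes in pool 2. A pool low for one tissue was not low for all: pool 4 had the lowest mean for fast muscle and the highest for intestine. For the lists named in this paragraph the highest and lowest pools were the same under all 6 sets of values compared (the main scaling, normexp background correction, quantile and median scaling, outlier spots kept, and the deposited matrix).

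**Figure D3:**
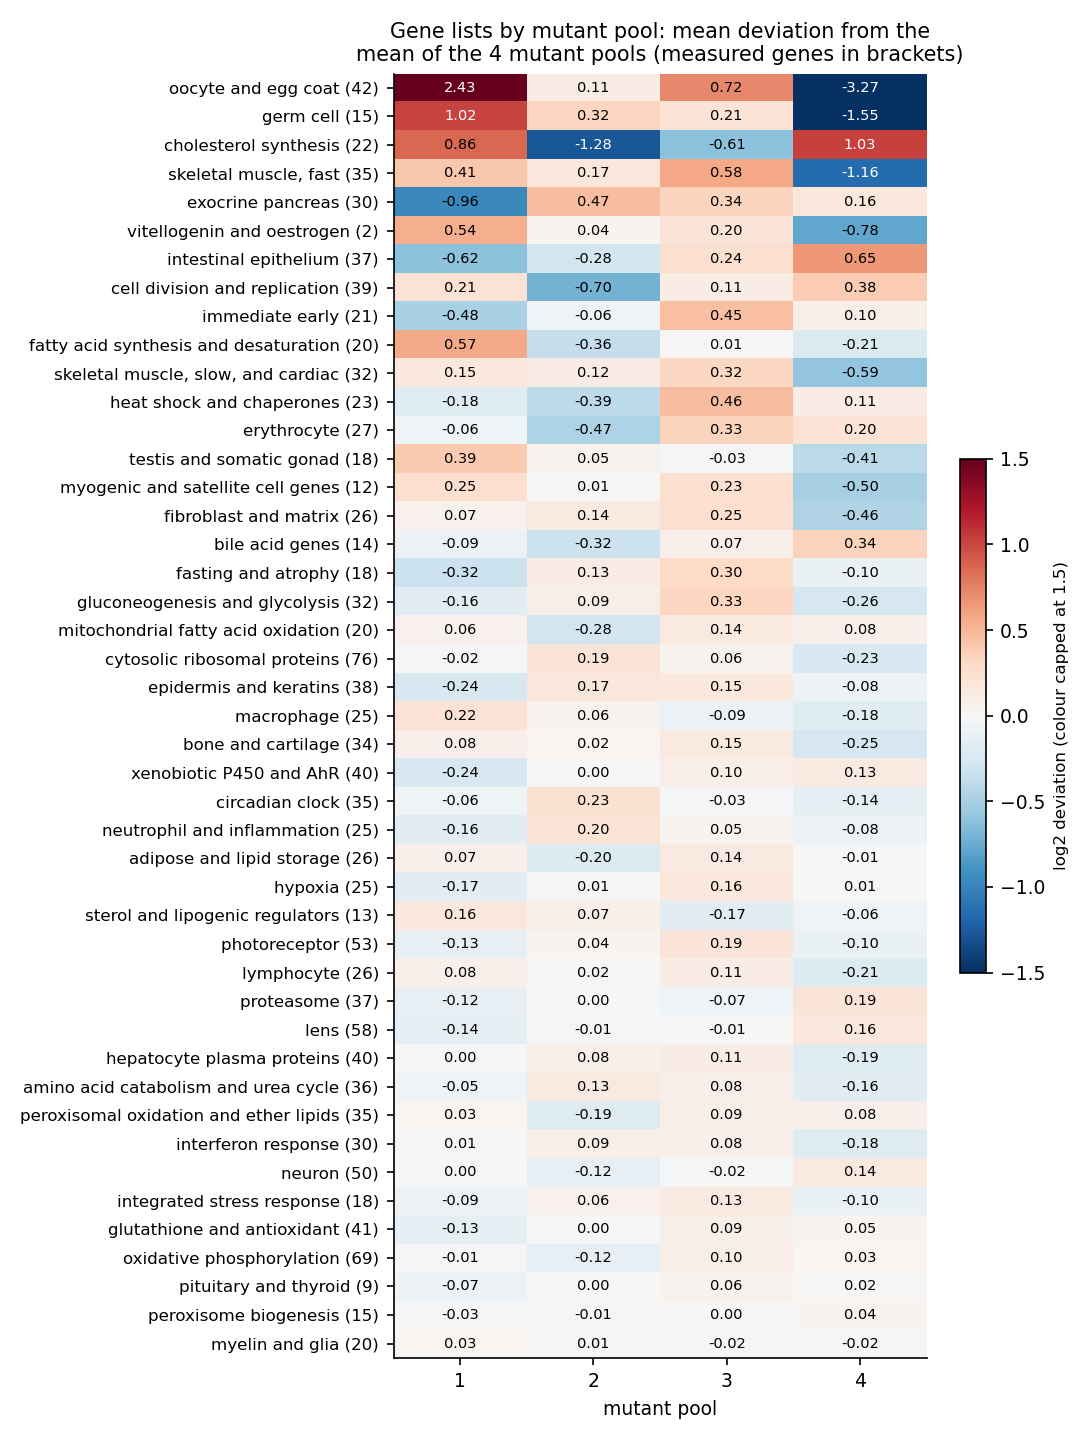
Mean log2 deviation of each of 45 gene lists (rows, measured genes in brackets) in the 4 mutant pools (columns), by colour and printed value. Rows are ordered by range, and the colour scale is capped. Oocyte and egg coat genes run from 2.43 in pool 1 to -3.27 in pool 4, cholesterol genes are high in pools 1 and 4, and ribosomal protein genes stay within 0.23 of 0.

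Oocyte transcripts had the widest ranges between the mutant pools when genes dim in pool 4 were included. Among genes well above background on all 4 mutant arrays they did not: there the list mean of pools 1 to 3 exceeded pool 4 by 1.57 for oocyte genes (8 genes) and 1.93 for germ cell genes. Of 42 measured genes of the oocyte and egg coat list, 38 were variable in the mutants and 34 in the siblings (all genes, 18.2% and 8.08%), but the median range was 84.4-fold in the mutants, or 31.6-fold with dim values set to their bound, against 2.39-fold in the siblings. The list's mean stood at 2.43, 0.11, 0.72 and -3.27 in mutant pools 1 to 4, a range of 5.71, while over the siblings it ranged over 0.90. Pool 1 was highest and pool 4 lowest in 33 of the 42 genes, and 34 were dim in pool 4. Between the ends, pool 3 lay above pool 2 in most: the full order 1, 3, 2, 4 was found in 27 genes. The median fold was 6.53 for pool 1 over pool 2, 4.84 for pool 1 over pool 3 and 1.52 for pool 3 over pool 2.

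Egg coat genes showed it most plainly. zpax1, which encodes a zona pellucida domain protein of the egg coat, stood at 4.29, 1.85, 2.27 and -4.1 in mutant pools 1 to 4 and at 5.91, 5.93, 5.00 and 5.60 in the sibling pools. It was well above background in every pool, its mutant values spanned 335-fold, and no mutant pool reached the siblings. zp2.6 stood at 4.77, 1.86, 2.45 and, dim, -6.37, a range of at least 648-fold. zp2.2 stood at 5.09, 2.22, 2.89 and, dim, -5.16, at least 809-fold. Pool 4 was lowest in 16 of the 17 zp genes measured and pool 1 highest in 16, but these copies are near-identical and their probes may share signal, so they are not independent. zp3b, well above background throughout, gave 3.8, 0.67, 1.55 and -1.85 (50.2-fold).

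Factors stored in the oocyte were also highest in pool 1 and lowest in pool 4. zar1, an RNA-binding protein that oocytes store, gave 3.15, 0.36, 0.97 and -3.20 in the mutant pools and 4.09 to 5.21 in the siblings, an 81.6-fold mutant range. npm2b, a histone chaperone of the egg, gave 3.14, 1.55, 1.26 and -2.81 (62.0-fold). buc, the organiser of the Balbiani body, gave 1.26, -1.16, -0.77 and, dim, -5.49 (at least 57.2-fold). nanog, whose transcript oocytes store for the embryo, gave 0.84, -2.83, -1.69 and, dim, -6.68 (at least 42.7-fold). Pool 1 was highest and pool 4 lowest in each of these 4. cldnd, a claudin, gave 4.18, 0.97, 1.70 and, dim, -6.83 (at least 433-fold), and a2m3g gave 4.01, 0.47, 1.67 and -3.64 (202-fold) against 4.90 to 6.19 in the siblings. The protease gene ctss2.1, of the cathepsin S family, gave 3.26, 0.30, 1.06 and -1.68 (30.8-fold). It belongs to the macrophage list used here, not to the oocyte list.

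Among regulators and growth factors of the follicle, figla and gdf9 were also highest in pool 1 and lowest in pool 4, while bmp15 was not highest in pool 1. The folds of figla and gdf9 are lower bounds, so they do not show a smaller difference. figla, the transcription factor that turns on egg coat genes, gave -0.64, -3.56, -2.64 and, dim, -5.76 (at least 15.2-fold). gdf9, a growth factor secreted by oocytes, gave -2.23, -3.78, -4.01 and, dim, -6.80 (at least 5.09-fold). bmp15, its relative, gave 2.13, 2.77, 1.94 and 1.65, only 2.17-fold and highest in pool 2. Of 8 list members well above background in all 4 mutant pools, 5 were lowest in pool 4.

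**Figure D4:**
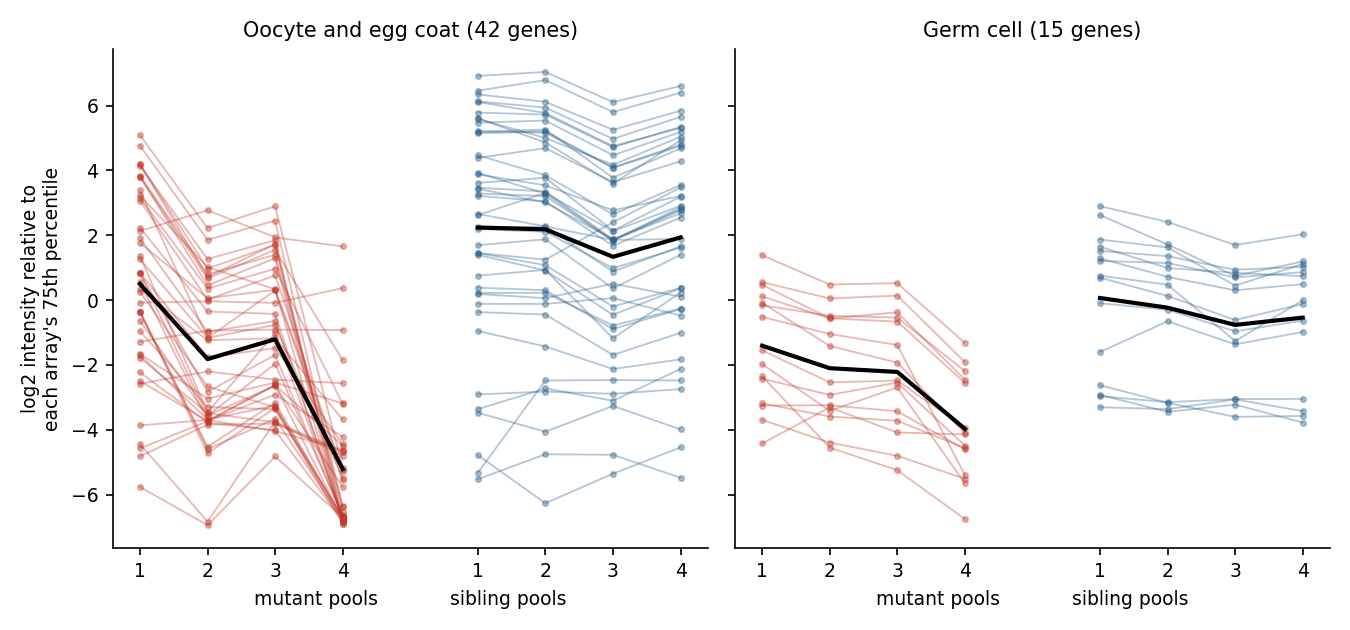
Log2 levels of 42 oocyte and egg coat genes (left) and 15 germ cell genes (right) in each mutant pool (red) and sibling pool (blue), with 1 line per gene, the list mean in black, and dim values included as measured. Lines join the values of a gene and imply no order of pools. Pool 1 is highest and pool 4 lowest for 33 of 42 oocyte genes, and sibling pool 3 is the lowest sibling for 33 of 42.

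Germ cell genes shared the highest and lowest pools with the oocyte genes, over a smaller range. All 15 measured were variable in the mutants and 5 in the siblings (all genes, 18.2% and 8.08%). Their median ranges were 5.51-fold and 1.93-fold. Their mean was 1.02, 0.32, 0.21 and -1.55 in mutant pools 1 to 4. Pool 1 was highest and pool 4 lowest in 13 of the 15, and among 8 well above background in every mutant pool, 7 were lowest in pool 4. ddx4, the Vasa helicase of germ cells, gave 0.55, 0.05, 0.14 and -1.91 (5.51-fold) with siblings at 0.74 to 1.65. dazl, an RNA-binding protein of germ cells, gave 0.47, -0.56, -0.66 and -2.55 (8.11-fold), and piwil1, the piRNA-binding protein Ziwi, gave 0.12, -0.56, -0.38 and -2.45. tdrd1, a Tudor protein of the germ granule, gave 1.38, 0.48, 0.52 and -1.32. In all 4 genes pool 4 lay apart from pools 1 to 3, and it was still above background, so germ cell transcripts were measured in every pool. dnd1, which protects germ cell transcripts, was dim in pool 4 at -5.39 against -0.52, -1.04 and -1.38, at least 16.7-fold. dmc1, a recombinase of meiosis, did not share the order: it gave -4.42, -3.31, -4.08 and -4.14, highest in pool 2.

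Steroid genes of the gonad and interrenal gland were mixed. cyp11a1.1, the side-chain cleavage enzyme that opens steroid synthesis, gave -1.11, -4.42, -3.73 and, dim, -5.67, at least 11.1-fold and highest in pool 1 like the oocyte genes. cyp17a1, which makes androgen precursors, gave -2.48, -3.17, -3.47 and, dim, -4.77 (at least 4.26-fold). star, the mitochondrial cholesterol carrier of steroid-making cells, went otherwise with -2.78, -3.36, -3.90 and -1.99, highest in pool 4. Among 18 testis and somatic gonad genes, 9 were variable in the mutants and 4 in the siblings (all genes, 18.2% and 8.08%).

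Pool 4 had the fewest probes above background over the whole array, and the part of this in the low oocyte values was not tested. In pool 4, 182 genes lay at least 4-fold below all other mutant pools, and 136 of them were dim there. The oocyte and germ cell lists held 33 of the 182, and the muscle lists 4. In those 182 genes pool 1 was the highest mutant pool in 155 (85.2%, against 18.4% of all genes), and sibling pool 3 was the lowest sibling in 145 (79.7%, against 23.4%). Genes chosen as low in pool 4 cannot be highest there, while pool 4 was highest in 35.1% of all genes. The choice of genes alone thus raises the share of pool 1 over that of all genes.

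Adult globin transcripts split the mutant pools into pairs. hbaa1, the adult alpha globin, stood at 5.28, 1.14, 5.75 and 0.70 in mutant pools 1 to 4 and at 7.11, 7.07, 7.46 and 7.38 in the siblings. Pools 1 and 3 lay far above pools 2 and 4, the mutant range was 33.1-fold against 1.3-fold in the siblings, and every mutant pool was below every sibling. hbba1, the adult beta globin, gave 4.51, 0.70, 5.73 and -0.03 (54.2-fold), and ba1l, another beta globin, gave 3.90, -0.29, 5.17 and -1.02 (72.8-fold). All 3 adult globins showed the same split, though their probes may share signal. hpxa, the plasma protein hemopexin that binds free heme, gave -1.41, -4.86, -0.37 and -4.48, with siblings at 3.99 to 4.49. It was dim in pools 2 and 4, and its range was 22.5-fold as measured. Its dim values lay above the lowest well-above-background values of those arrays (-4.89 and -4.57), so no bound was applied.

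The split between pools 1 and 3 and pools 2 and 4 is also the split between slide rows. Sibling arrays lay in the same rows. Their values above lay within 0.39 of each other for hbaa1 and spanned somewhat more for hpxa. In the mutants 89 genes had both pools 1 and 3 at least 2-fold above both pools 2 and 4, and 13 had the reverse. In 4 of those 89 genes the siblings of the first row exceeded those of the second by at least 2-fold, and the median sibling difference was 0.34. For comparison, both pools 1 and 2 lay 2-fold above pools 3 and 4 in 27 genes (reverse, 36), and pools 1 and 4 above pools 2 and 3 in 28 (reverse, 20). Row and animals cannot be told apart in these mutant pairs.

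Other red cell genes did not follow the adult globins. Of 27 erythrocyte genes, 18 were variable in the mutants and 7 in the siblings (all genes, 18.2% and 8.08%), and the list's mean was -0.06, -0.47, 0.33 and 0.20. Embryonic and larval globins, which adult globins replace during growth, were highest in pool 4 in 6 of 6 genes. hbae1.1 gave 1.49, 2.36, 1.76 and 3.86 in the mutants and 3.33, 1.25, 1.48 and 1.97 in the siblings. hbae3 gave 2.64, 4.12, 3.70 and 5.04 in the mutants, while the siblings gave 2.68, -0.81, -0.61 and -1.68. hbbe1.1 gave 3.44, 4.34, 3.8 and 5.40 with siblings at 3.96, 1.76, 1.88 and 1.84, and hbbe1.2, a near copy, gave 3.42, 4.32, 3.81 and 5.38. Pool 1 had the lowest of these 4 in each case, and sibling pool 1 stood above the other siblings. hbbe2 gave 4.23, 3.90, 4.64 and 5.27, and hbae5 gave 3.59, 2.12, 3.93 and 4.29, with pool 2 lowest. slc4a1a, the anion exchanger band 3 of the red cell membrane, gave -0.43, -1.56, 0.36 and 0.47. alas2, the first enzyme of heme synthesis in red cells, gave -1.45, -2.36, -1.01 and -1.56, a smaller range than among the siblings, which gave -0.37, -3.64, 0.04 and -0.76.

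Most genes of cholesterol synthesis moved together and set pools 1 and 4 above pools 2 and 3. Of 22 measured, 20 were variable in the mutants and 3 in the siblings (all genes, 18.2% and 8.08%). Their median ranges were 5.77-fold and 1.62-fold. Their mean was 0.86, -1.28, -0.61 and 1.03 in mutant pools 1 to 4, a range of 2.31 against 0.57 in the siblings. Pools 1 and 4 both exceeded pools 2 and 3 in 20 of the 22 genes, and pool 2 was lowest in 19. In 20 genes pools 1 and 4 also lay above every sibling pool. Pool 2 lay below every sibling in 15 genes and pool 3 lay within the siblings in 13, so the mutant pools lay on both sides of the wild type.

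The pattern was seen at early and late steps of the pathway. hmgcs1, which makes HMG-CoA, gave 6.26, 3.78, 5.38 and 6.33 (5.86-fold). hmgcra, HMG-CoA reductase and the rate-limiting step, gave 4.15, 2.13, 2.67 and 4.02 (4.07-fold), with siblings at 2.56 to 2.94. sqlea, squalene epoxidase, gave -0.86, -3.32, -2.36 and -0.66. lss, which closes the sterol rings, gave 1.77, -1.27, 0.25 and 2.31 (12.0-fold) with siblings at -0.50 to 0.49. Both pools 1 and 4 were above the siblings and pool 2 below them for lss and hmgcra. msmo1, a sterol methyl oxidase, gave 3.64, 0.76, 1.86 and 4.19 (10.8-fold). cyp51, lanosterol demethylase, gave 4.31, 1.53, -1.29 and 4.60 (59.4-fold) against 0.95 to 1.71 in the siblings. For cyp51 pool 3, not pool 2, was lowest.

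Sterol-regulated genes outside the cholesterol synthesis list shared the split in part, and hmgcrb and lbr of that list did not share it. tmem97, a sterol-responsive membrane protein, gave 2.43, 0.55, 0.51 and 2.4 with siblings at 1.75 to 2.07. ldlra, the LDL receptor, gave 2.37, 1.34, 1.3 and 1.91, and insig1, the sterol sensor that holds back SREBP, gave 0.76, -0.10, -0.09 and 0.21. srebf2, the transcription factor of the pathway, gave 5.35, 5.25, 5.55 and 6.16, where pool 4 alone was high. Within the cholesterol synthesis list, hmgcrb, the second HMG-CoA reductase gene, stayed at 1.17, 1.21, 1.18 and 1.33 (1.12-fold). lbr of the same list, the sterol reductase of the nuclear envelope, stayed at -0.81, -0.62, -0.52 and -0.30. rdh12, a retinol dehydrogenase, shared the split between pools 1 and 4 and pools 2 and 3, with 1.39, 0.09, 0.16 and 1.56.

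Fatty acid synthesis was highest in pool 1 instead. Of 20 genes, 8 were variable in the mutants and 3 in the siblings (all genes, 18.2% and 8.08%), and the list's mean was 0.57, -0.36, 0.01 and -0.21. scd, the desaturase that makes oleate, gave 3.24, 0.73, 0.26 and 0.32 (7.88-fold), with pool 1 alone high. fasn, fatty acid synthase, gave 2.77, 1.56, 1.48 and 1.70, and acaca, acetyl-CoA carboxylase, gave 3.50, 2.54, 2.41 and 2.28. thrsp, a small protein of lipogenic cells, gave 2.21, -6.48, -2.75 and -6.89, dim in pools 2 and 4 and at least 137-fold apart. srebf1, the regulator of lipogenic genes, gave -2.62, -1.0, -2.95 and -3.42, highest in pool 2. Pool 1 was thus high for both lists, while pool 4 was high for cholesterol genes and near pools 2 and 3 for scd, fasn and acaca.

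**Figure D5:**
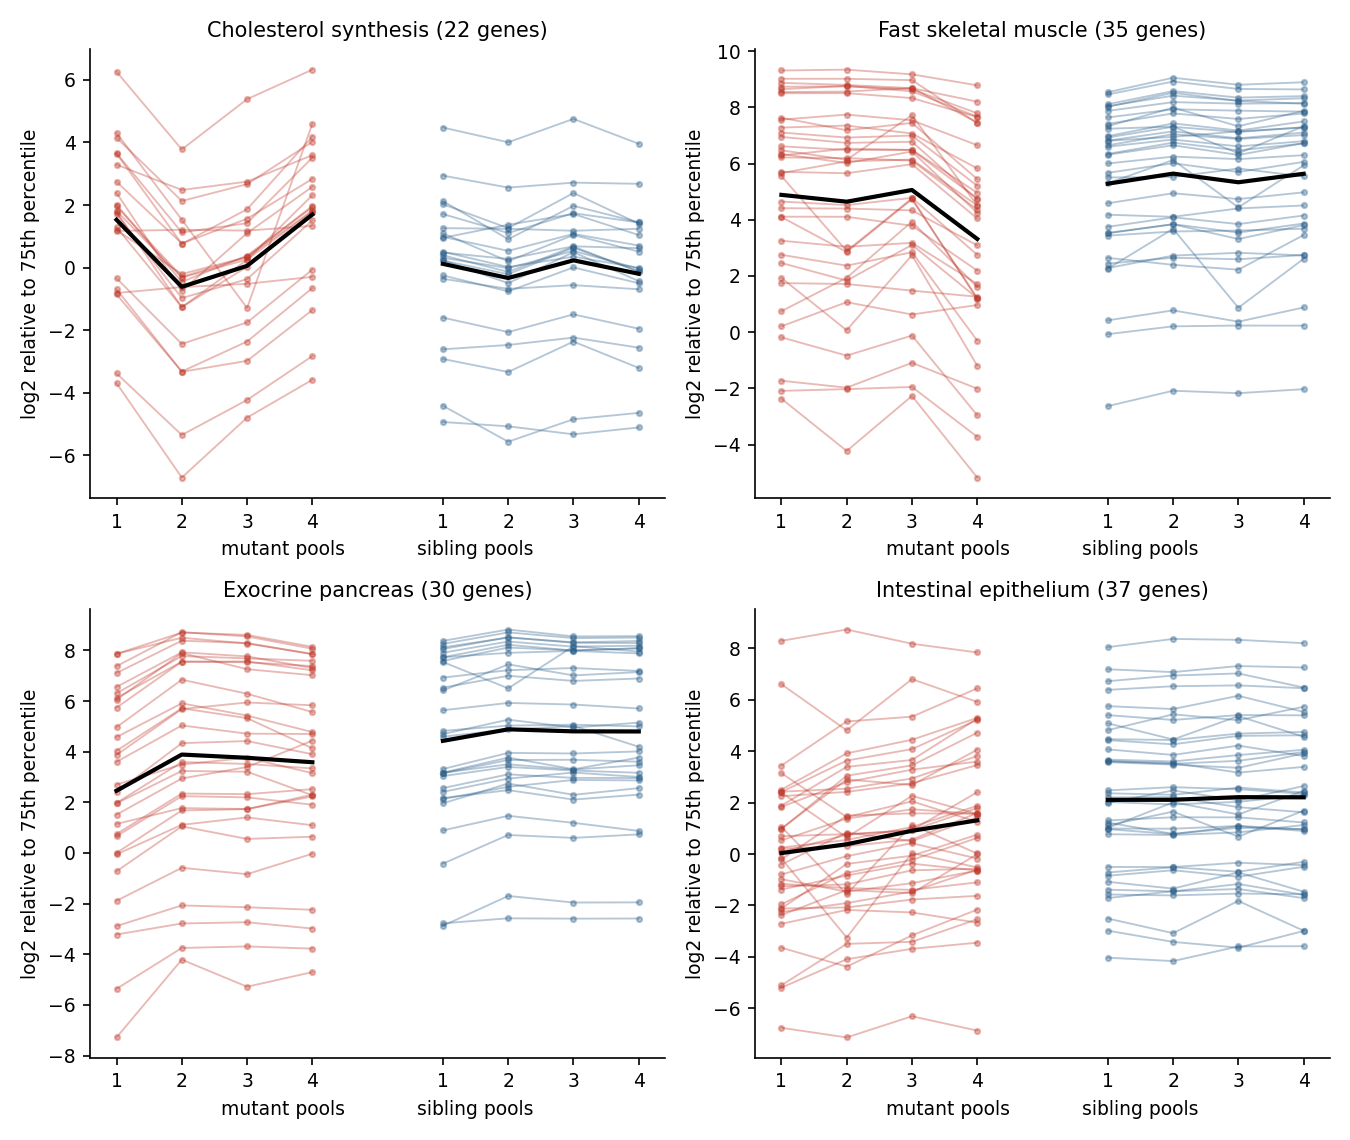
Log2 levels of genes of cholesterol synthesis, fast muscle, exocrine pancreas and intestine in each mutant pool (red) and sibling pool (blue), with 1 line per gene and the list mean in black. Cholesterol genes are high in mutant pools 1 and 4, fast muscle genes are low in pool 4, pancreas genes are low in pool 1, and the intestine mean is lowest in pool 1 and highest in pool 4.

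Muscle genes were low in pool 4. Of 35 fast muscle genes, 28 were variable in the mutants and 3 in the siblings (all genes, 18.2% and 8.08%). Their median ranges were 3.62-fold and 1.32-fold. The list's mean was 0.41, 0.17, 0.58 and -1.16 in mutant pools 1 to 4. Pool 4 was lowest in 33 of 35, at least 2-fold below every other mutant pool in 23, and below every sibling in 31. myhz2, a fast myosin heavy chain, gave 7.63, 7.18, 7.44 and 5.45 (4.53-fold). actn3a, the fast-fibre alpha-actinin, gave 7.1, 6.92, 6.99 and 5.21 (3.71-fold), and tnnt3b, fast troponin T, gave 9.01, 9.01, 8.96 and 7.43 (2.99-fold). In these 3 bright genes pools 1 to 3 lay close together and pool 4 alone was low, so the difference did not involve values near background. myoz1a, a Z-disc protein, gave 4.43, 4.22, 4.49 and 2.24, and aldoab, the glycolytic aldolase, gave 6.48, 6.61, 6.70 and 4.47 (4.69-fold).

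The fast muscle genes with the widest ranges also separated pool 2. myha, a myosin heavy chain gene, gave 5.55, 2.89, 4.76 and 1.18 (20.7-fold) with siblings at 6.36 to 7.32. tnni2a.3, a fast troponin I, gave 1.93, 0.07, 2.74 and -1.19 (15.3-fold), and pvalb3, a calcium-buffering parvalbumin, gave 4.1, 2.85, 4.73 and 1.22 (11.4-fold). In all 3 the order was pools 1 and 3 above pool 2 above pool 4. Skeletal actin genes were highest in pool 3: acta1b gave 6.47, 6.13, 7.72 and 4.50, and acta1a gave 0.75, 1.94, 3.93 and 1.61 (9.09-fold).

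Slow and cardiac muscle, myogenic genes and connective tissue leaned the same way with smaller ranges. Of 32 slow and cardiac muscle genes, 17 were variable in the mutants and 1 in the siblings, the list's mean was 0.15, 0.12, 0.32 and -0.59, and pool 4 was lowest in 21. tnni1c, a slow troponin I, gave 0.04, -0.33, 0.34 and -2.51. Of 12 myogenic and satellite cell genes 7 were variable in the mutants and 3 in the siblings (all genes, 18.2% and 8.08%). myog, myogenin, gave 0.64, 0.42, 0.54 and -0.78, and myod1 gave -2.10, -1.89, -1.23 and -2.99. Of 26 fibroblast and matrix genes, 10 were variable in the mutants and 0 in the siblings, and pool 4 was lowest in 22. tnmd, the tendon protein tenomodulin, gave -2.73, -2.83, -2.62 and -4.21, and mgp, matrix Gla protein, gave -1.04, -0.37, -0.74 and -2.09.

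Exocrine pancreas genes were low in pool 1. Of 30 genes, 26 were variable in the mutants and 4 in the siblings (all genes, 18.2% and 8.08%). Their median ranges were 2.88-fold and 1.42-fold. The list's mean was -0.96, 0.47, 0.34 and 0.16, and pool 1 was lowest in 29 of 30. ela2, an elastase, gave 3.87, 5.68, 5.94 and 5.83 (4.2-fold) with siblings at 6.42 to 7.45. prss59.1, a trypsin-like protease, gave 5.74, 7.55, 7.53 and 7.38 (3.52-fold). Pools 2 to 4 lay within 0.26 of each other for ela2, and pool 1 alone was low. pla2g1b, pancreatic phospholipase, gave 0.00, 1.68, 1.73 and 2.3, and ctrb.2, a chymotrypsinogen, gave 1.51, 2.94, 3.39 and 4.44. cpa1, a carboxypeptidase, and amy2a, amylase, were low in pool 4 as well, with 4.03, 5.71, 5.32 and 4.14 for cpa1 and 4.97, 6.84, 6.29 and 5.56 for amy2a.

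Intestinal genes were mostly lowest in pool 1 and highest in pool 4, and all mutant pools lay below the siblings in 25 of 37. In the mutants 30 of 37 were variable and in the siblings 3 (all genes, 18.2% and 8.08%). Their median ranges were 3.38-fold and 1.33-fold. Averaged over the list, levels were -0.62, -0.28, 0.24 and 0.65, a range of 1.27 against 0.11 in the siblings. Pool 1 was lowest in 27, pool 2 in 7, and pool 4 was highest in 25. apoa4b.2, an apolipoprotein of absorbed fat, gave 0.97, 3.05, 3.45 and 4.72 (13.4-fold) with siblings at 4.45 to 5.36. fabp2, the fatty acid carrier of enterocytes, gave 2.5, 3.91, 4.45 and 5.29 (6.91-fold), and chia.1, a chitinase, gave 1.89, 3.39, 3.66 and 5.26 (10.4-fold) with siblings at 5.21 to 5.40. slc5a1, the glucose cotransporter, gave 0.08, 0.75, 0.93 and 2.4. The 4 genes shared the order 1, 2, 3, 4, and pool 4 was the mutant pool nearest to the siblings.

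A second set of gut genes was low in pool 2 instead. fabp6, the bile acid carrier of the ileum, gave 5.59, 2.78, 5.99 and 5.25 (9.24-fold) with siblings at 6.98 to 7.30. slc10a2, which takes up bile acids in the ileum, gave -1.69, -3.60, -2.32 and -2.10. amn, whose product amnionless anchors the endocytic receptor cubilin, gave -0.17, -3.25, 0.04 and -0.52 (9.76-fold) with siblings at 0.77 to 1.09. cubn, cubilin itself, gave 1.06, -1.56, 1.13 and 0.02 (6.43-fold), and dab2, their endocytic adaptor, gave 2.39, 0.65, 2.26 and 1.56. These genes act together in protein uptake in kidney tubules and, in fish, in enterocytes of the hind gut. ctsl.1, a lysosomal cathepsin L, gave 6.60, 4.81, 6.80 and 5.91. tmigd1, a membrane protein of kidney and gut epithelium, gave 0.07, -2.26, 0.09 and 0.72, and tspan34a, a tetraspanin, gave -0.20, -3.34, -0.28 and -0.87. Pool 2 was lowest in all 8, which were grouped after their values were seen, so the count is a description.

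Cell division genes were also low in pool 2. Of 39 genes, 26 were variable in the mutants and 9 in the siblings (all genes, 18.2% and 8.08%). The list's mean was 0.21, -0.70, 0.11 and 0.38, pool 2 was lowest in 37 and pool 4 highest in 28. mki67, the proliferation marker Ki-67, gave -2.20, -3.34, -1.59 and -1.07. cdk1, the mitotic kinase, gave 0.13, -0.91, 0.15 and 0.52, and plk1, a spindle kinase, gave 0.99, -0.61, 0.47 and 0.99. The cyclins that oocytes also store kept pool 2 lowest but were highest in pool 1: ccnb1 gave 0.91, -1.89, -0.60 and -0.81, and ccna2 gave 0.32, -1.52, -0.16 and 0.09.

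Another group of genes set pools 3 and 4 above pools 1 and 2. gck, glucokinase, which liver induces on feeding, gave -1.55, -2.08, 3.31 and 1.72 (41.8-fold) with siblings at 1.12 to 2.83. ahsg2, a fetuin that liver secretes, gave 3.07, 2.25, 5.14 and 4.49 (7.44-fold) with siblings at 5.16 to 5.35. Pools 3 and 4 lay in or near the siblings' range for both, and pools 1 and 2 far below it. The mean of 40 hepatocyte genes did not show this split: it was highest in pool 3 (0.11) and lowest in pool 4 (-0.19), with pool 2 at 0.08. Of these genes 7 (17.5%, against 18.2% of all genes) were variable in the mutants and 0 in the siblings. Their median range in the mutants was 1.48-fold. cyp2k18, a cytochrome P450, gave 1.06, 1.23, 2.6 and 2.92, g0s2, an inhibitor of fat breakdown, gave 0.50, 0.37, 1.96 and 1.49, and ehhadh, a peroxisomal beta-oxidation enzyme, gave 0.34, 0.02, 1.05 and 1.34.

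Chaperones and immediate early genes varied as well. Of 23 heat shock genes, 12 were variable in the mutants and 4 in the siblings (all genes, 18.2% and 8.08%), with a mean of -0.18, -0.39, 0.46 and 0.11. hsp90aa1.1, a chaperone of myosin folding in zebrafish muscle, gave 2.36, 0.68, 4.81 and 1.41 (17.5-fold) with siblings at 2.77 to 4.15, pool 3 alone being high. hsp90aa1.2, a near copy whose probe may share signal, gave -1.77, -2.02, -0.15 and -0.49, and serpinh1b, the collagen chaperone, gave 0.20, -0.04, 1.89 and 1.67. Among 21 immediate early genes, which respond within minutes to stimulation, 11 were variable in the mutants and 12 in the siblings, and their mean ranged over 0.93 in the mutants and 1.18 in the siblings. npas4a, an activity-induced factor of neurons, gave 1.21, 1.12, 2.59 and 2.42 with siblings at 0.18 to 0.87, and egr4 gave 1.44, 1.25, 2.57 and 2.46. fosab, a Fos factor, varied less in the mutants (0.62, 1.51, 2.25 and 1.67) than in the siblings (1.24, 3.05, 2.59 and 3.44).

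Some single genes stood out in 1 pool. In pool 2, cplx2b, a complexin of synaptic vesicle release, gave 0.42 against -3.88, -3.23 and -3.58 in pools 1, 3 and 4 (19.7-fold). rnasel2, a secreted ribonuclease, gave -0.13, 3.04, 0.17 and 0.10 (9.01-fold), and sibling pool 3 was likewise high at 1.84. map9, a microtubule protein, gave -2.68, -0.43, -2.93 and -2.61. In pool 4, mhc2d8.35b2, an MHC class II gene, gave -3.48, -3.95, -3.10 and 0.89 (28.5-fold), and no sibling pool was well above background for it. tm4sf21b, a tetraspan membrane protein, gave -0.89, 1.03, 0.75 and 3.08 (15.7-fold), enpp7.1, the alkaline sphingomyelinase of the gut, gave -3.04, -2.20, -1.74 and 0.32, and mbl2, a mannose-binding lectin, gave -2.90, -1.95, -1.54 and 0.42. Pool 4 was highest in all 4 of these. gpx1b, a glutathione peroxidase, gave 1.54, 1.68, 1.84 and 3.14, again with pool 4 alone high. In pool 3, c1galt1a, a glycosyltransferase, gave -3.70, -2.84, -0.91 and -3.69, and neurl2 gave -3.13, -2.5, -0.82 and -2.98.

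Among lists of the eye, skeleton and skin, the share of variable genes was 27.6% for lens, 44.1% for bone, 15.1% for photoreceptors and 10.5% for epidermis, against 18.2% of all genes. Of 58 lens genes, 16 were variable in the mutants and 8 in the siblings. Of the 16, pool 4 alone was high in 6, and pools 1 and 3 were high in 3. The crystallins crygn2 (-3.06, -0.62, -2.34 and -0.68) and crygm2a (4.76, 2.87, 4.28 and 3.46) went opposite ways. Both parted pools 1 and 3 from pools 2 and 4, which is also the split between slide rows. Row and animals cannot be told apart there. Of 53 photoreceptor genes 8 were variable in the mutants and 3 in the siblings. opn1mw3, a green cone opsin with near-identical copies, gave -1.53, -2.62, -0.30 and -3.69 (10.5-fold), again parted by slide row. Of 34 bone genes, 15 were variable in the mutants and 3 in the siblings. col2a1a, the cartilage collagen, gave 1.04, 1.75, 1.62 and 2.61. Of 38 epidermis and keratin genes 4 were variable in the mutants and 1 in the siblings, and krt4, a keratin of the skin surface that was among the most variable of that list, gave 4.97, 5.48, 5.89 and 5.97.

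Metabolic lists lay between these extremes. Of 32 gluconeogenesis and glycolysis genes, 11 were variable in the mutants and 1 in the siblings, and of 40 xenobiotic P450 and AhR genes, 11 and 0. Of 36 amino acid catabolism and urea cycle genes 9 and 2 were variable, of 26 adipose and lipid storage genes 6 and 2, and of 14 bile acid genes 6 and 4. In the order given, the mutant shares were 34.4%, 27.5%, 25%, 23.1% and 42.9%. Over all genes 18.2% were variable in the mutants and 8.08% in the siblings, so the adipose and amino acid shares lay near that of all genes. The means of these lists ranged over 0.29 to 0.66 in the mutants and 0.13 to 0.40 in the siblings.

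Genes of ribosomes, respiration, proteasomes and neurons lay close together in the mutant pools, though mostly not closer than in the sibling pools. The SD was larger in the mutants for 71 of 76 ribosomal, 59 of 69 oxidative phosphorylation and 37 of 50 neuron genes. It was larger for 16 of 37 proteasome genes, and for 70.2% of all genes. Of 76 cytosolic ribosomal protein genes 0 were variable in either group (all genes, 18.2% in the mutants and 8.08% in the siblings). Their largest mutant range was 1.51-fold. Their mean was -0.02, 0.19, 0.06 and -0.23, highest in pool 2 in 73 genes and lowest in pool 4 in 72, but quantile normalization left 0.02, 0.01, 0.01 and -0.04, so this order depended on the scaling. Of 69 oxidative phosphorylation genes 3 were variable in the mutants and 1 in the siblings (median ranges of 1.25-fold and 1.12-fold). Of 37 proteasome genes 1 was variable, and the median range was 1.28-fold in both groups, with pool 4 highest in 34. psmb3 gave 0.12, 0.35, 0.21 and 0.81. Of 50 neuron genes 2 were variable in the mutants and 1 in the siblings.

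Peroxisome biogenesis genes differed little. Of 15 peroxisome biogenesis genes 0 were variable in either group, with median ranges of 1.33-fold in the mutants and 1.18-fold in the siblings and a largest mutant range of 1.6-fold. pex3, which inserts peroxisome membrane proteins, gave 0.31, 0.08, 0.56 and 0.75, and pex14, a docking protein of the import pore, gave 0.92, 0.77, 0.93 and 0.93. Of 35 genes of peroxisomal oxidation and ether lipids 4 (11.4%, against 18.2% of all genes) were variable in the mutants and 2 in the siblings.

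By counts of variable genes and by list means, interferon and neutrophil genes were at least as spread among the siblings, while macrophage and lymphocyte genes were not. Median SDs were slightly larger in the mutants for interferon (0.316 against 0.292) and neutrophil genes (0.272 against 0.263). The mutant shares of variable genes were 33.3% for interferon, 28% for neutrophil, 28% for macrophage and 34.6% for lymphocyte genes, against 18.2% of all genes. Of 25 macrophage genes 7 were variable in the mutants and 3 in the siblings, and of 26 lymphocyte genes 9 and 5. The variable macrophage genes include ctss2.1, whose mutant pools had the order of most oocyte genes. Of 30 interferon genes 10 were variable in the mutants and 11 in the siblings, and their mean ranged over 0.27 in the mutants and 0.88 in the siblings. The sibling difference lay between slide rows, the first row minus the second being -0.69 in the siblings and 0.09 in the mutants. isg15, a ubiquitin-like interferon target, gave 0.52, 1.71, 0.94 and -0.21 in the mutants and -1.0, -2.87, -0.17 and -2.66 in the siblings. Of 25 neutrophil genes 7 and 8 were variable. cxcl8b.1, a neutrophil-attracting chemokine, gave -2.53, -1.15, -1.0 and -2.29 against 0.19, 2.47, 1.81 and 2.53 in the siblings.

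A formal test of unequal spread called few genes, and its calls carry little weight. Limma's test on absolute deviations from the group mean, with Benjamini-Hochberg adjustment, called 36 of 17263 genes (0.209%) more spread in the mutants and 8 (0.0463%) less spread. At an unadjusted p under 0.05 it counted 1627 and 342. At that cutoff it also counted 8.27% of simulated probes made with equal SDs, so part of these counts arises without any difference. The F test of the variance ratio called 0 and 0, with 1573 and 242 unadjusted. In simulated data of this size limma's test recovered 3 of 100 probes with a 4-fold and 3 of 100 with an 8-fold larger SD, and it called 24 of 29689 probes made with equal SDs. These calls therefore do not establish any single gene as more variable. By limma's test the lowest adjusted p values among the genes named above were 2.09e-04 for tmem97, 0.00104 for hbaa1, 0.0076 for rdh12, 0.0203 for hbba1 and for ba1l, 0.0249 for hpxa and for hsp90aa1.2, 0.0304 for serpinh1b and 0.0349 for cpa1. The test uses each pool's distance from its group mean, so pools split evenly into 2 pairs give near-equal distances and low p values. It therefore favours such genes in either group, and the frequency of pair splits among its calls is not a result. Other called genes split pools 3 and 4 from pools 1 and 2. timm29, a subunit of a mitochondrial import complex, gave -1.97, -1.96, -0.04 and -0.28 (limma adjusted p = 0.00329). riok2, a kinase of ribosome maturation, gave -6.40, -6.32, -0.19 and 0.46, dim in pools 1 and 2 (at least 51.4-fold, limma adjusted p = 0.00195), and akr1a1a, an aldehyde reductase, gave -6.94, -7.05, -2.17 and -2.43, dim in the same pools (at least 8.29-fold, limma adjusted p = 2.09e-04). Of the genes called less spread, the 3 given next were split among the siblings between pools 1 and 3 and pools 2 and 4, which is also the split between slide rows, and row and animals cannot be told apart there. rangap1a, a regulator of nuclear transport, gave -1.42, -1.21, -1.16 and -0.52 in the mutants and 0.39, -3.84, 0.25 and -4.28 in the siblings (limma adjusted p = 0.00195). nudt19, a peroxisomal CoA hydrolase in mice, gave -4.15, -3.98, -4.21 and -4.24 against -0.71, -3.77, -1.22 and -3.8 (limma adjusted p = 0.00329). ifit8, an interferon-induced gene, gave -4.36, -4.30, -4.19 and, dim, -4.85 against -3.38, -6.92, -3.40 and -7.58 (limma adjusted p = 0.00411). The 2 lowest sibling values of ifit8 lay below the lowest well-above-background value of every mutant array (-4.57 to -5.29). Its sibling split thus involves values near background.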

How the data were processed

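Total RNA of 8 pools of 3 larvae (4 pex2 mutant, 4 wild-type sibling) was labelled with Cy3 and hybridised to a one-colour Agilent array, per the labels' protocols. The authors deposited scanner intensity values made with Agilent Feature Extraction 10.7.3.1 (protocol GE1_107_Sep09, grid of build danRer7), per the file headers. They also deposited a matrix of log2 values whose scaling no header or label states. Centred on each probe's median over the arrays, 99.41% to 99.51% of its values lay within 0.01 of those used here. This table served only as an alternative.

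Outlier spots were dropped, log2 processed signals of a probe's spots averaged, and the 75th percentile of the array subtracted. Probes flagged well above background on 4 or more arrays were kept (29935). Names came from a RefSeq table (GRCz12tu) by unversioned accession, which named 61.8% of 39749 probes, and 9948 kept probes have none. A gene takes its brightest kept probe. No genotype means were compared. Spread was tested with limma 3.58.1 (R 4.3.3) on absolute deviations from the group mean, two-sided, with Benjamini-Hochberg adjustment at 0.05, and checked on simulated data. Other calculations used Python 3.11.15, numpy 2.4.6 and pandas 2.3.3. Array number limits precision: p-values measure the spread between 4 pools a group.

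Members and gene lists were chosen with earlier results of these data known. Genes were named by these rules: the 20 largest SDs among genes well above background on all 4 mutant arrays, the 10 largest among genes dim on some, up to 5 per pool with the largest gap above or below, up to 3 per list, and the 8 smallest adjusted p in each direction. Not all of these are printed, and other genes, such as buc, nanog, bmp15, dmc1 and cubn, were chosen by function after their values were seen. Alternatives covered background correction, scaling, filters, spread measures, slide row and leaving out each pool. The replicate numbers were not taken to pair the groups, and the labels used here do not state a pairing. Same-numbered samples' deviations correlated at -0.03 to 0.18 and others at -0.33 to 0.25, which cannot exclude one.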

Additional observations from a re-analysis of the deposited data

Results flagged for a closer look

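In groups of 4 pools, 1 pool was taken to stand apart where its gap to the nearest other pool exceeded Dixon's limit of about 0.83 of the group's whole range. Over 346 groups examined (45 lists and 128 printed genes, mutants and siblings each), 14 genes met this in the mutants, 7 in the siblings and 0 lists. Chance alone meets it in about 1 of 20 groups, and the genes were chosen with their values known, so the counts are a description.

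Pool 4 stood below the other mutant pools in 6 genes of muscle and tendon. The gap took 0.968 of the range for tnnt3b, 0.905 for actn3a, 0.902 for aldoab, 0.881 for myoz1a, 0.865 for tnmd and 0.846 for myog. Pool 1 stood below the others for the pancreatic proteases prss59.1 (0.903) and ela2 (0.874), and above them for the desaturase scd (0.845). Pool 2 stood above the others for rnasel2 (0.907), map9 (0.873) and cplx2b (0.848). It stood below them for pex14 (0.939), whose whole range was small, and for amn (0.8291).

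In the siblings, pool 1 stood above the others for the embryonic beta globins hbbe1.2 (0.952) and hbbe1.1 (0.945). Sibling pool 1 stood below the others for fabp6 (0.873) and pool 2 for chia.1 (0.951). Sibling pool 3 stood above the others for rnasel2 (0.912), and below them for myha (0.908) and cyp11a1.1 (0.852).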

How the results depend on the processing

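Of the alternative values, 216 moved little and 51 moved further. Many of the 216 could hardly move, because leaving out a sibling pool leaves the values of the mutant pools as they were. Lifting the filter also left the list means unchanged. The tally is therefore not a measure of stability. The means of the lists named below and the wider spread of the mutants by ranges and median SDs kept their direction. The balance of spread test calls did not. Some other lists changed their highest or lowest pool with the scaling. Under median scaling the lowest pool for gluconeogenesis and glycolysis genes was 1 instead of 4, and the highest for erythrocyte genes was 4 instead of 3. The size of the wider spread depended on pools and filters. Genes with a 2-fold range over the mutants numbered 3138, 1224 with normexp background correction, 1940 and 2002 with probes well above background on all 8 or all 4 mutant arrays, 4720 with no filter, and 823 at 4-fold. Leaving out 1 mutant pool gave 2500, 2106, 2795 and 1702 (without pools 1, 2, 3 and 4). Leaving out 1 sibling pool gave 3138 to 3140, but this leaves the 4 mutant pools as they were and does not test their range. The median SD was 0.170 to 0.230 when 1 pool was left out. Within slide rows, which differ in animals too, 2444 genes kept a 2-fold range. The first component's share was 54.6% and 54.4% under the 2 stricter filters, 50.2% with unit variance, and 62.2% to 83.1% without 1 pool. For oocyte genes the mean of pools 1 to 3 minus pool 4 was 4.37, and 1.57 under either stricter filter, which drops the genes dim in pool 4. This is below the germ cell value there (1.93). Leaving out 1 pool gave 3.69 to 4.85 for oocyte, 1.81 to 2.22 for germ cell, 1.56 to 2.23 for cholesterol, 1.45 to 1.66 for fast muscle, 0.694 to 1.1 for intestine, 0.866 to 1.00 for cell division, 0.395 to 0.742 for heat shock and 1.21 to 1.37 for pancreas genes. These differences between pools were chosen from the same values. Where 1 pool alone formed a side, that pool could not be left out. This was pool 4 for oocyte, germ cell and fast muscle, pool 1 for pancreas and pool 2 for cell division genes. Leaving out a sibling pool cannot change these means. The ranges thus do not test the pool that sets such a difference. Median scaling put the median of all genes in pool 4 at 0.12, from 0.02.

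Spread test counts were unstable: leaving out any 1 mutant pool gave 0 genes more spread and 7, 3, 1 and 5 less spread (without pools 1, 2, 3 and 4), so the balance turned to the other side. Genes more spread in the mutants numbered 36, but 22 with normexp, 60 with median scaling, 21 under each stricter filter, 13 with deviations from the group median, 15 with squared deviations, 0 with the F test or a trended robust fit, 19 with slide row as a block, 100 at an adjusted p of 0.1 and 0 to 11 with 1 pool left out. Genes less spread numbered 8, but 3 on all 8 arrays, 18 with no filter, 3 with squared deviations, 0 with the F test or trended robust fit, 16 at an adjusted p of 0.1 and 0 to 7 with 1 pool left out. With the replicate block, which pairs samples by number only, 4 were more and 2 less spread. The spread test on gene values averaged over probes was not run, nor was the row block for components and list means, whose within-row values differ only by single pools. Signal over background limits pool 4, where 330 of 609 low genes gave only a bound.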
